A study of Homo sapiens with 6 samples.

Results

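The Hippo pathway kinases and the angiomotin proteins that restrain the co-activator TAZ were examined in KMM1 cells, a line established from human multiple myeloma. The set holds 10 of the 57290 genes in the deposited files, taken by gene symbol: the kinases LATS1, LATS2, STK3 and STK4, the adaptors SAV1, NF2 and FRMD6, and the angiomotins AMOT, AMOTL1 and AMOTL2. The study has 6 libraries of polyadenylated RNA: 3 from KMM1 cells that received lentivirus expressing TAZ, and 3 from KMM1 cells that received the empty vector WPI. RNA of both groups was taken 4 days after transduction. The promoter that drives TAZ, the share of cells that carried the vector and any selection are not given in the sources used here, and neither is whether the libraries of a group came from separate cultures. The p-values therefore measure the spread between these libraries, which may be technical.

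TAZ, encoded by WWTR1, and its paralog YAP drive transcription with TEAD factors. In the Hippo cascade the MST kinases (STK3 and STK4), held by the scaffold SAV1, activate the LATS kinases, and LATS phosphorylates YAP and TAZ so that they are kept in the cytoplasm or degraded. NF2 (merlin) and FRMD6 (willin) act at the membrane upstream of LATS, and the angiomotins bind YAP and TAZ at junctions and the actin cytoskeleton and promote LATS activity. LATS2 and AMOTL2 are known in other cells as genes that YAP and TAZ switch on, which makes them negative feedback regulators of the pathway.

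The promoter sequences of the 3 genes that rose (described below with their values) are shown first, because TEAD factors bind DNA at GGAATG. They are RefSeq sequences of build GRCh38.p14, read 5′ to 3′ on the gene's strand, whereas all gene and exon positions given later are in hg19, the build of the deposited files. Capitals mark GGAATG or its reverse complement CATTCC.
AMOTL2, the 250 bases before a start at chr3:134374448-134374697, minus strand: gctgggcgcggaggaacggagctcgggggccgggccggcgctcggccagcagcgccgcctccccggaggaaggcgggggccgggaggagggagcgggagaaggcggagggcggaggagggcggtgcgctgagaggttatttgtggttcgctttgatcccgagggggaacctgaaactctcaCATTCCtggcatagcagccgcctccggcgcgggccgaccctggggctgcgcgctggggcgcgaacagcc
LATS2, the last 10 bases before the start and the first 20 transcribed bases at chr13:21061567-21061596, minus strand: ggggtcacgtgacgcccgtGGAATGccaac
AMOT, the 250 bases before the start at chrX:112840832-112841081, minus strand: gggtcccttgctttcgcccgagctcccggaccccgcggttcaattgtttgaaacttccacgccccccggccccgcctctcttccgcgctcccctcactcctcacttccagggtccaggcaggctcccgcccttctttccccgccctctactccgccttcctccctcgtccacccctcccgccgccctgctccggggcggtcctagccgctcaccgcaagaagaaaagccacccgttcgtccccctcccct
The CATTCC of AMOTL2 began 69 bases before the start and the GGAATG of LATS2 at transcribed base 10, while the AMOT window held neither. The 250 bases before the LATS2 start, not printed in full, held neither, and the shorter LATS2 stretch was printed to show its match. AMOTL2 had a second window, not printed, at a start further upstream (chr3:134375418-134375667), and it held neither as well. Which of these starts the AMOTL2 signal came from was not tested. Windows of 300 bases, running from 250 bases before to 50 after a start, were found for 9 of the 10 genes (12 windows). GGAATG on either strand occurred in 2 of these 12, a share near the 14.03% of 35116 such windows of all genes. The longer forms GGAATGT and GGAATGC together occurred in the same 2 windows and in 6.64% of all. TGANTCA, the AP-1 motif, occurred in 1 of the 12, that of LATS1, and in 7.71% of all. These matches are letters in a window and do not show binding.

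Levels below are TPM (a share of each library's transcripts, corrected for transcript length, so that genes can be compared) summed per gene and scaled between libraries, and log2 differences are TAZ minus WPI of log2(scaled TPM + 1). The limma test took genes whose mean reached 1 TPM, and adjusted p (Benjamini-Hochberg) covers all 19390 genes tested. The libraries held 1099.95 to 2033.2 megabases of aligned sequence, of which 73.62% to 75.91% lay on annotated transcripts. WWTR1 had 365, 138 and 145 scaled TPM in the TAZ libraries, against 2.35, 1.21 and 1.40 in the WPI libraries, so the labels held for the transgene. The first principal component (38.9% of the variance) separated the groups, and WPI library 3 stood apart on the second (23.4%).

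Of the 10 genes, 3 were higher in the TAZ libraries (LATS2, AMOT and AMOTL2) and 0 were lower at an adjusted p under 0.05 in limma. Over all tested genes 3.21% passed, 2.25% as higher and 0.964% as lower. The 10 genes were chosen with earlier results of these data known, so these shares do not test the set. Without scaling between libraries the higher genes made up 86.2% of all calls, against 70% with scaling, and the median log2 difference of all genes was 0.17 in place of -0.05; the same 3 genes were called. The 3 TAZ libraries did not overlap the 3 WPI libraries for 6 of the 10 genes, 4 of them higher and 2 lower. The groups did not overlap for 24.9% of all tested genes, 10.1% as higher and 14.8% as lower. Without WPI library 3 the same 3 genes were called, with log2 differences of 2.22 for LATS2, 1.77 for AMOT and 5.27 for AMOTL2. All 10 genes met the minimum of 1 TPM, AMOT and AMOTL2 through the TAZ libraries alone. In bulk RNA, more cells that express a gene and more RNA of that gene per cell cannot be told apart.

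**Figure D1:**
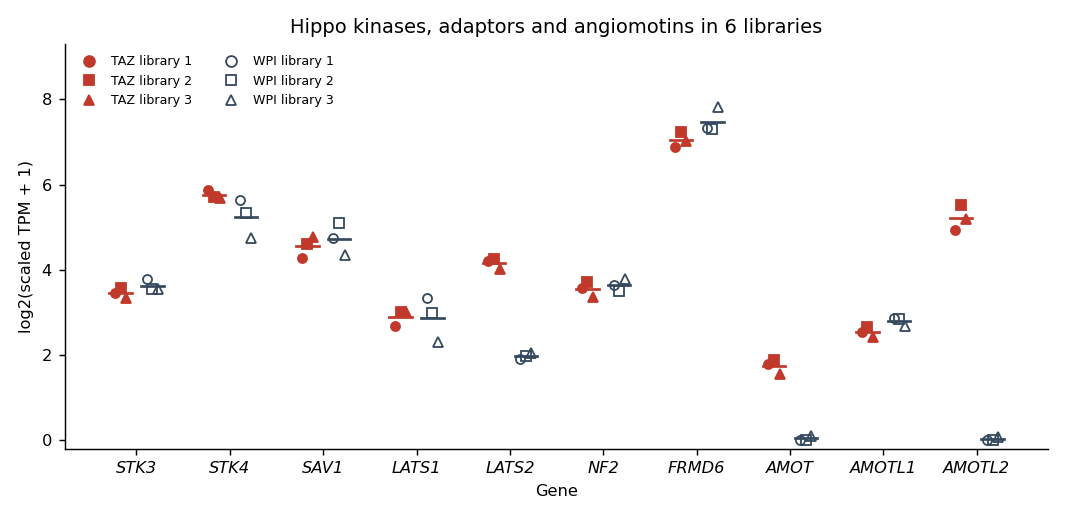
Level of each of the 10 genes in every library, as log2(scaled TPM + 1), with TAZ libraries as filled red symbols left of the WPI libraries as open dark symbols. LATS2, AMOT and AMOTL2 show all 3 TAZ libraries far above all 3 WPI libraries, while the other 7 genes show smaller differences.

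**Figure D2:**
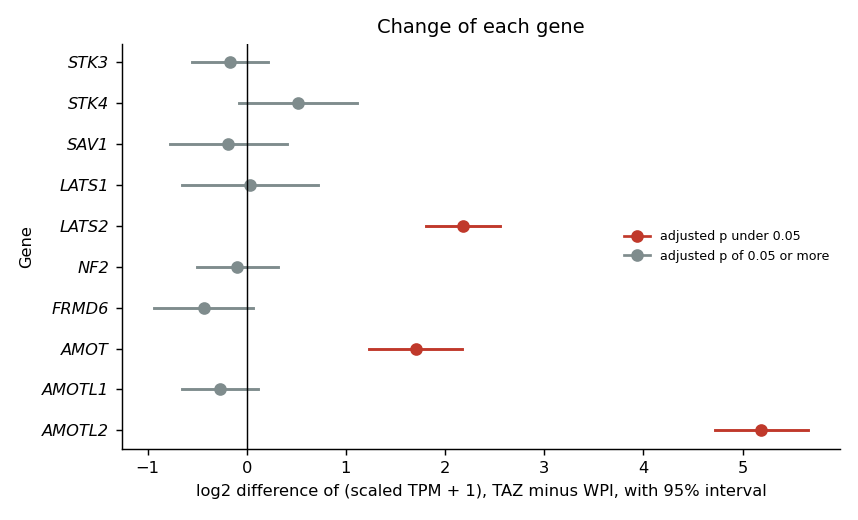
Log2 difference of each gene, TAZ minus WPI, with its 95% interval from limma. The intervals of LATS2, AMOT and AMOTL2 lie above 0, at 1.81 to 2.55, 1.24 to 2.17 and 4.72 to 5.66, and the other 7 intervals include 0.

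At the membrane, NF2 (ENSG00000186575.13, chromosome 22, 29999545 to 30094587, plus strand) had 10.8, 12.1 and 9.304 scaled TPM in the TAZ libraries, against 11.5, 10.3 and 12.7 in the WPI libraries. The groups overlapped, and the log2 difference was -0.09 ± 0.17 (SE; 95% interval -0.50 to 0.31; limma adjusted p = 0.797). FRMD6 (ENSG00000139926.11, chromosome 14, 51955818 to 52197445, plus strand) had the highest level of the 10 genes in both groups, with 117, 150 and 129 scaled TPM in the TAZ libraries, against 159, 157 and 224 in the WPI libraries. Every TAZ library was below every WPI library, and WPI library 3 was the highest. Of the level in WPI library 3, 59.7 scaled TPM lay on ENST00000555936.1, a transcript of 624 bases listed at 0 in every other library. The log2 difference of -0.43 ± 0.21 did not pass the test (95% interval -0.93 to 0.07, limma adjusted p = 0.333), and it was -0.27 without WPI library 3.

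Among the MST kinases, STK4 (ENSG00000101109.7, chromosome 20, 43595115 to 43708600, plus strand) had 57.2, 50.9 and 50.8 scaled TPM in the TAZ libraries, against 48.5, 39.3 and 25.9 in the WPI libraries. All TAZ libraries were above all WPI libraries, and WPI library 3 was the lowest. The log2 difference was 0.51 ± 0.25 (95% interval -0.08 to 1.11, limma adjusted p = 0.336), and it was 0.26 without WPI library 3. STK3 (ENSG00000104375.11, chromosome 8, 99413631 to 99955055, minus strand) had 10.01, 10.996 and 9.13 scaled TPM in the TAZ libraries, against 12.7, 10.7 and 10.8 in the WPI libraries, with overlap between the groups. Its log2 difference was -0.17 ± 0.16 (95% interval -0.55 to 0.21, limma adjusted p = 0.609). SAV1 (ENSG00000151748.10, chromosome 14, 51098776 to 51135049, minus strand), the scaffold that joins the MST kinases to LATS, had 18.3, 23.5 and 26.1 scaled TPM in the TAZ libraries, against 25.9, 33.3 and 19.4 in the WPI libraries. Its groups overlapped, with a log2 difference of -0.18 ± 0.25 (95% interval -0.77 to 0.40, limma adjusted p = 0.720). Without scaling the differences of STK3, SAV1 and NF2 turned to 0.073, 0.068 and 0.15, so these small differences have no settled direction. ATL1, on the strand opposite SAV1 and overlapping one of its exons, had a mean of 2.56 scaled TPM in the TAZ libraries and 1.63 in the WPI libraries.

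Of the LATS kinases, which phosphorylate YAP and TAZ, LATS2 rose and LATS1 did not pass the test. LATS2 (ENSG00000150457.7, chromosome 13, 21547171 to 21635686, minus strand) had 17.4, 18.1 and 15.2 scaled TPM in the TAZ libraries, against 2.74, 2.93 and 3.15 in the WPI libraries. The lowest TAZ library was well above the highest WPI library. LATS2 averaged 16.9 ± 1.53 scaled TPM in TAZ libraries and 2.94 ± 0.205 in WPI libraries (SD, n = 3 each), a 5.74-fold difference of means. On the log2 scale LATS2 rose by 2.18 ± 0.15 (95% interval 1.81 to 2.55, limma adjusted p = 0.00110), and it was called in all 16 alternative settings. LATS1 (ENSG00000131023.8, chromosome 6, 149979289 to 150039392, minus strand) had 5.43, 7.03 and 7.11 scaled TPM in the TAZ libraries, against 9.08, 6.88 and 3.93 in the WPI libraries. The TAZ values of LATS1 fell inside the range of the WPI values, and its log2 difference was 0.03 ± 0.29 (95% interval -0.66 to 0.72, limma adjusted p = 0.965). The LATS1 difference was -0.26 without WPI library 3, its lowest library.

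The sum of LATS1 and LATS2 was 22.9, 25.1 and 22.3 scaled TPM in the TAZ libraries, against 11.8, 9.80 and 7.09 in the WPI libraries. LATS2 made up 76.2%, 72.0% and 68.1% of that sum in the TAZ libraries, against 23.2%, 29.9% and 44.5% in the WPI libraries. LATS2 was thus the more abundant LATS transcript in every TAZ library and LATS1 in every WPI library. The log2 difference between the paralogs, LATS2 minus LATS1, averaged 1.25 ± 0.262 in TAZ libraries and -0.89 ± 0.598 in WPI libraries (SD, n = 3 each). The groups differed by 2.15 (two-sided exact permutation test, p = 0.1, which is the lowest value open to 3 against 3 libraries, and 0.1 after adjustment over the 4 paralog pairs compared).

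Among the angiomotins, AMOTL2 showed the largest difference of the 10 genes. AMOTL2 (ENSG00000114019.10, chromosome 3, 134074716 to 134094321, minus strand) had 29.5, 44.7 and 35.7 scaled TPM in the TAZ libraries and was listed at 0, 0 and 0.0577 in the WPI libraries. Nearly all AMOTL2 signal was therefore in the TAZ libraries, where 105658, 128244 and 115897 aligned bases lay on the gene, against 0, 0 and 141 in the WPI libraries. AMOTL2 rose by 5.19 ± 0.20 on the log2 scale (95% interval 4.72 to 5.66, limma adjusted p = 1.69e-04), and it was called in all 16 alternative settings. AMOT (ENSG00000126016.9, chromosome X, 112017731 to 112084043, minus strand), the founding angiomotin, had 2.46, 2.70 and 1.95 scaled TPM in the TAZ libraries, against 0.0109, 0.00964 and 0.0690 in the WPI libraries. Here too every TAZ library was far above every WPI library, but at a much lower level than AMOTL2. AMOT rose by 1.70 ± 0.20 (95% interval 1.24 to 2.17, limma adjusted p = 0.00632). Because the WPI values lie near 0, the size on this scale is set by the pseudocount: with 0.1 in place of 1 the differences were 8.28 for AMOTL2 and 4.27 for AMOT. Without TAZ library 2, AMOT fell below the minimum of 1 TPM and was not tested.

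AMOTL1 (ENSG00000166025.13, chromosome 11, 94439597 to 94609918, plus strand), the remaining paralog, had 4.81, 5.29 and 4.33 scaled TPM in the TAZ libraries, against 6.34, 6.21 and 5.44 in the WPI libraries. All TAZ libraries were below all WPI libraries. The log2 difference of -0.27 ± 0.16 did not pass the test (95% interval -0.65 to 0.11, limma adjusted p = 0.420). It was -0.05 without scaling.

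The 3 angiomotins summed to 36.8, 52.7 and 41.9 scaled TPM in the TAZ libraries, against 6.35, 6.22 and 5.56 in the WPI libraries. AMOTL2 held 80.2%, 84.8% and 85.0% of this sum in the TAZ libraries, against 0%, 0% and 1.04% in the WPI libraries. AMOTL1 held 13.1%, 10.03% and 10.3% in the TAZ libraries, against 99.8%, 99.8% and 97.7% in the WPI libraries. The leading angiomotin was therefore AMOTL2 in the TAZ libraries and AMOTL1 in the WPI libraries. AMOTL2 minus AMOTL1 averaged 2.68 ± 0.253 on the log2 scale in TAZ libraries and -2.78 ± 0.149 in WPI libraries, and AMOT minus AMOTL1 averaged -0.79 ± 0.0556 in TAZ libraries and -2.76 ± 0.150 in WPI libraries (SD, n = 3 each, two-sided exact permutation p = 0.1 for both, the lowest possible). In the MST pair the order of the paralogs was the same in all 6 libraries: STK4 held 85.1%, 82.2% and 84.8% of the STK3 and STK4 sum in the TAZ libraries, against 79.2%, 78.6% and 70.6% in the WPI libraries. STK3 minus STK4 averaged -2.29 ± 0.155 in TAZ libraries and -1.61 ± 0.364 in WPI libraries (SD, n = 3 each, two-sided exact permutation p = 0.1).

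**Figure D3:**
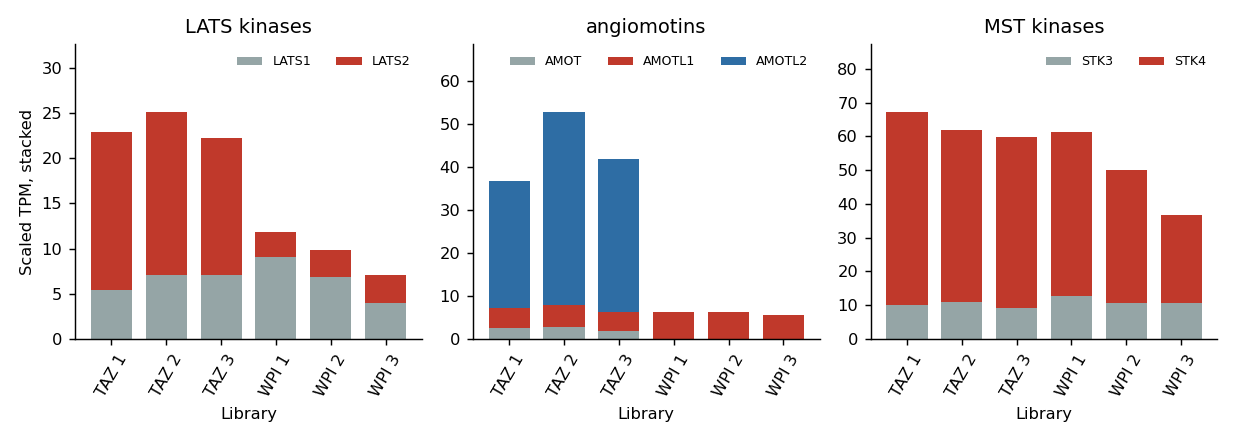
Scaled TPM of the LATS kinases, the MST kinases and the angiomotins, stacked by gene for each TAZ library (left) and each WPI library (right). LATS2 makes up most of the LATS bar and AMOTL2 most of the angiomotin bar in the TAZ libraries, whereas LATS1 and AMOTL1 lead in the WPI libraries.

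Ordered by mean level, the TAZ libraries ran FRMD6, STK4, AMOTL2, SAV1, LATS2, NF2, STK3, LATS1, AMOTL1 and AMOT, and the ranges of NF2 and STK3 overlapped. The WPI libraries ran FRMD6, STK4, SAV1, NF2, STK3, LATS1, AMOTL1, LATS2, AMOT and AMOTL2. Neighbours with overlapping ranges in the WPI libraries were STK4 and SAV1, NF2 and STK3, LATS1 and AMOTL1, and AMOT and AMOTL2. AMOTL2 thus stood at rank 10 in the WPI libraries and at rank 3 in the TAZ libraries. The order depends on summing TPM over transcripts of unlike length, and part of the SAV1 sum lay on transcripts of 870 and 562 bases. By aligned bases LATS2 stood above SAV1 in the TAZ libraries. LATS2 had 48.8, 54.8 and 49.2 bases per aligned megabase, against 23.3, 31.6 and 29.0 for SAV1, over exons of 5739 and 5630 bases. TAZ library 1 had the highest WWTR1 level of the TAZ libraries, and TAZ library 2 the highest gene levels of LATS2, AMOT and AMOTL2. For AMOTL2 this order depends on the part of the gene that is read, as its exon depths show.

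Exon depth shows where along the genes the signal lay. In LATS2 (transcript ENST00000382592.4, 8 exons), 5 exons had all TAZ libraries above all WPI libraries, and exons 3 and 7 were listed at 0 in all 6 libraries. Over those 5 exons (5088 bases) depth per gigabase aligned was 9.58, 10.2 and 9.06 in the TAZ libraries, against 1.37, 1.51 and 1.68 in the WPI libraries. These are also the exons with depth above 0 in every TAZ library. They were picked by the TAZ values, so depth over them describes the difference and gives it no separate support. Exon 6 was left out, with 0, 15.2 and 16.9 per gigabase in the TAZ libraries, against 0, 1.87 and 0 in the WPI libraries. In AMOT (ENST00000371959.3, 11 exons), 10 exons had all TAZ libraries above all WPI libraries, so its low signal was spread along the transcript. In AMOTL2 (ENST00000514516.1, 10 exons) this held for exons 2, 3, 4, 6, 7 and 8, and 8 exons were at 0 in every WPI library. Over those 6 exons (2072 bases) the depth was 31.3, 23.6 and 18.9 per gigabase in the TAZ libraries, against 0, 0 and 0.0619 in the WPI libraries. They were picked in the same way, and the last exon, at 0 in TAZ library 1, was left out. TAZ library 1 was the highest over these 6 exons.

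The last exon of AMOTL2 (chromosome 3, 134074719 to 134076605, 1887 bases) carried a depth of 0, 34.2 and 29.1 per gigabase in TAZ libraries 1, 2 and 3, against 0 in all WPI libraries. An exon of RPL39P5, a pseudogene on the same strand, lies inside it (134075217 to 134075403, 187 bases). That pseudogene exon had 31.9, 0 and 0 per gigabase in the TAZ libraries, against 0, 0.0252 and 0.0392 in the WPI libraries. Its transcript ENST00000273411.2 had 26.4, 0 and 0 scaled TPM in the TAZ libraries, against 0.0582, 0.181 and 0.191 in the WPI libraries. A second RPL39P5 transcript, ENST00000512505.1, lies outside AMOTL2 (134070781 to 134070931) and had 20.9, 16.1 and 20.01 scaled TPM in the TAZ libraries, against 4.82, 12.2 and 25.3 in the WPI libraries. TAZ library 1 was thus the TAZ library with depth on the pseudogene exon, with none on the last exon of AMOTL2 and with the lowest AMOTL2 gene level. The part of read assignment in these values was not tested.

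**Figure D4:**
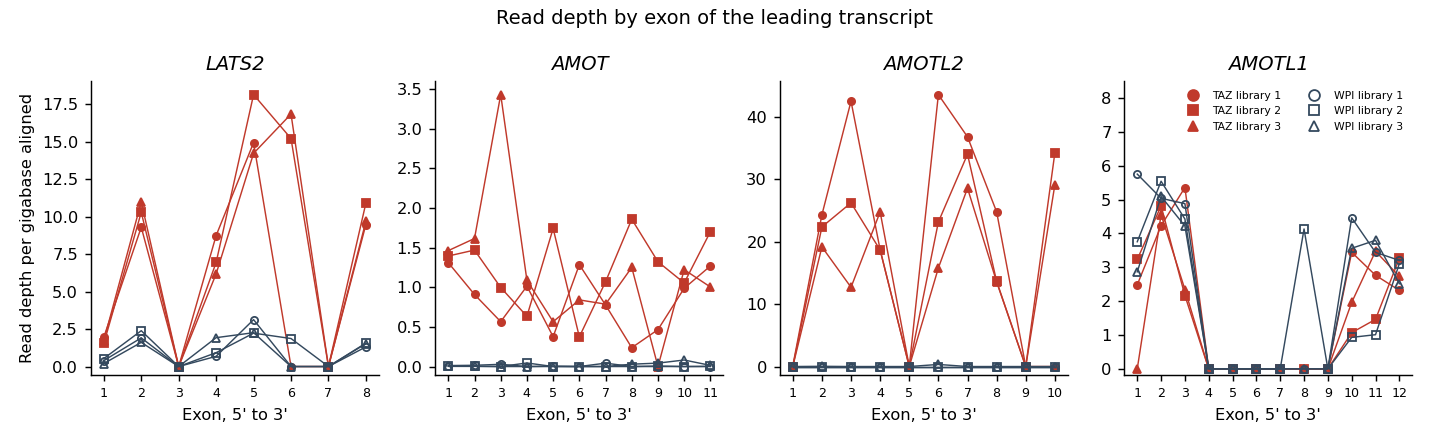
Deposited read depth per gigabase aligned along the exons (5′ to 3′) of the leading transcript of LATS2, AMOT, AMOTL2 and AMOTL1, one line per library. TAZ libraries (filled) lie above WPI libraries (open) in 5 of 8, 10 of 11 and 6 of 10 exons of the first 3 genes, and exons at 0 in all libraries stand between exons with signal.

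The 10 genes have 96 annotated transcripts, of which 47 were above 0 in any library and 22 were abundant enough to be tested. Over all 29480 tested transcripts 1.6% passed, 1.11% as higher. Of the 22, 1 passed: LATS2 ENST00000382592.4, with a log2 difference of 2.21 ± 0.17 (limma adjusted p = 0.00602), which held 99.2% of the LATS2 level in TAZ libraries and 96.9% in WPI libraries. AMOT ENST00000371959.3 held 93.9% of the AMOT level in TAZ libraries, and its log2 difference was 1.68 ± 0.32 (limma adjusted p = 0.108). The AMOTL2 level sat on ENST00000514516.1 in TAZ libraries 1 and 2 (28.3 and 44.7 scaled TPM) and on ENST00000249883.5 in TAZ library 3 (35.7), and neither passed the test (limma adjusted p = 0.469 and 0.695). SAV1 alternated in the same way between ENST00000324679.4 and ENST00000555720.1, and FRMD6 ENST00000555936.1 was above 0 in WPI library 3 alone (59.7 scaled TPM). In each of these cases the gene's level moved between annotated transcripts from library to library.

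Likeness was the root mean square difference between centred log2 profiles over the 6 libraries, smallest first, a measure that includes the size of the change. Closest to LATS2 were F2RL1, a protease-activated receptor (0.04), CDC42EP3, a CDC42 effector (0.0512), and HAPLN1, a hyaluronan link protein (0.0535). Next were KRT8P39, a keratin pseudogene (0.0668), and TAP1, a peptide transporter of antigen presentation (0.0784). The part of read assignment in the KRT8P39 level was not tested. TAP1 had 438 scaled TPM in TAZ libraries and 95.2 in WPI libraries, a far higher level than LATS2 with a similar log2 difference of 2.19. For genes near 0 in the WPI libraries this likeness is set by the pseudocount of 1. HAPLN1 averaged 3.45 scaled TPM in TAZ libraries and 0.00505 in WPI libraries, and F2RL1 4.74 and 0.265. Both met the minimum through the TAZ libraries alone. Over the alternative settings their log2 differences reached 5.07 and 3.74, against 2.48 for LATS2. Closest to AMOT were AC144831.1 (0.0859), ATP8B1, a phospholipid flippase (0.0986), METTL7A (0.0997), FGFR2, a fibroblast growth factor receptor (0.105), and PSG8 (0.107). Closest to AMOTL2 were LUM, a matrix proteoglycan (0.181), HBEGF, a ligand of the EGF receptor (0.19), DKK1, a secreted Wnt antagonist (0.26), AKR1C3, an aldo-keto reductase (0.269), and ANXA1, a phospholipid-binding protein (0.314). Of the genes closest to AMOT and AMOTL2, only METTL7A, HBEGF and ANXA1 averaged above 1 scaled TPM in WPI libraries. The others met the minimum through the TAZ libraries alone.

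The rest of the pathway was described from lists of 70 other genes, of which 60 were tested: 3 were higher and 0 lower. The 3 are 5% of the 60, against 2.25% of all tested genes, and the median log2 difference was 0.18 (40 of 60 above 0), against -0.05 over all tested genes. These lists too were chosen with earlier results of these data known, so the shares do not test them. WWC3, a scaffold of the KIBRA family that promotes LATS activity, had 23.0, 22.8 and 23.5 scaled TPM in the TAZ libraries, against 12.6, 9.62 and 6.996 in the WPI libraries, and rose by 1.20 ± 0.22 (limma adjusted p = 0.0421). MPP5 (PALS1), a scaffold of the Crumbs polarity complex, had 23.0, 26.4 and 25.8 scaled TPM in the TAZ libraries, against 11.9, 8.86 and 9.67 in the WPI libraries, and rose by 1.23 ± 0.17 (adjusted p = 0.0139). AJUBA, a LIM protein that binds and restrains LATS, had 15.5, 15.8 and 14.9 scaled TPM in the TAZ libraries, against 4.93, 6.80 and 6.71 in the WPI libraries, and rose by 1.21 ± 0.17 (adjusted p = 0.0151). In all 3 the groups did not overlap. Leaving out TAZ library 2, TAZ library 3 or WPI library 2 left none of the 3 called, and without TAZ library 1 only MPP5 remained called (limma).

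By list, 1 of 20 tested kinases and adaptors upstream of or beside the core was higher (median log2 difference 0.26), as were 1 of 8 polarity and junction genes (0.19) and 1 of 2 LIM proteins that bind LATS (1.15). None of the 13 tested subunits of STRIPAK, the phosphatase complex that inactivates the MST kinases, passed (0.20), nor any of the 10 genes for turnover of Hippo proteins (0.13) or the 7 14-3-3 genes (-0.42), whose products hold phosphorylated YAP and TAZ in the cytoplasm. Among genes that did not pass, LIMD1, the relative of AJUBA, had 106, 108 and 102 scaled TPM in the TAZ libraries, against 62.3, 49.4 and 36.9 in the WPI libraries (log2 difference 1.10, limma adjusted p = 0.0528, and 1.28 with adjusted p = 0.0420 without WPI library 1). RASSF4, a RAS-association protein, averaged 33.9 ± 8.18 scaled TPM in TAZ libraries and 11.6 ± 5.56 in WPI libraries (1.57, adjusted p = 0.115). STK38L, an NDR kinase related to LATS, averaged 22.3 ± 5.51 in TAZ libraries and 10.9 ± 2.50 in WPI libraries (0.96, adjusted p = 0.124). SFN (14-3-3 sigma) averaged 104 ± 32.5 in TAZ libraries and 52.2 ± 3.99 in WPI libraries (0.94, adjusted p = 0.112; SD, n = 3 each, limma).

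Other 14-3-3 genes were uneven between libraries of one group. YWHAZ (14-3-3 zeta) had 14.2, 14.04 and 17.3 scaled TPM in the TAZ libraries, against 113, 111 and 12.05 in the WPI libraries. WPI library 3 thus lay with the TAZ libraries, and the log2 difference was -1.77 with all libraries (limma adjusted p = 0.322) and -2.81 without WPI library 3 (adjusted p = 0.00219). YWHAH (14-3-3 eta) had 8.74, 288 and 262 scaled TPM in the TAZ libraries, against 374, 247 and 254 in the WPI libraries. TAZ library 1 stood alone, and the log2 difference was -1.67 with all libraries (limma adjusted p = 0.527) and -0.06 without it.

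**Figure D5:**
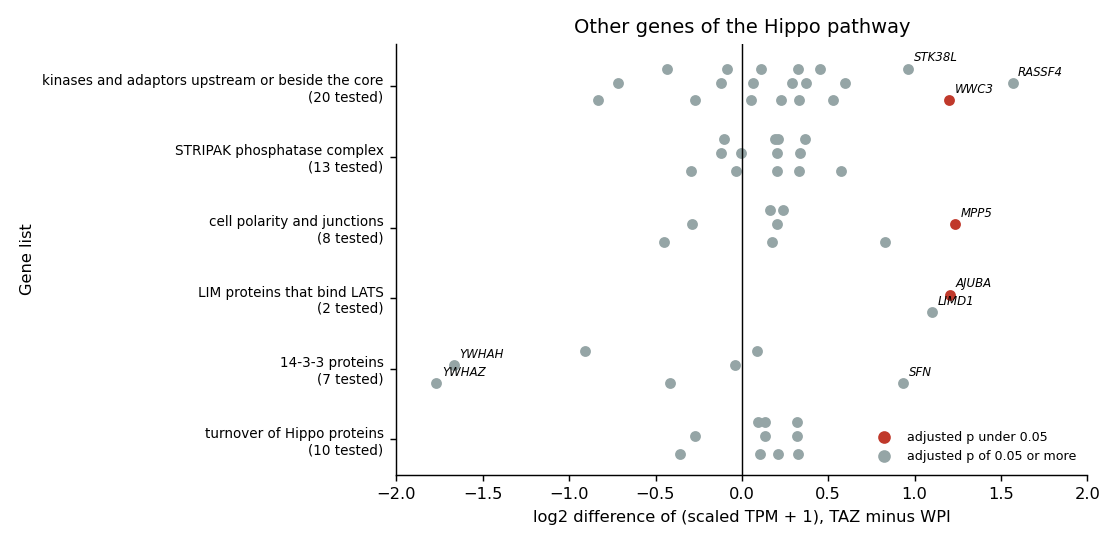
Log2 difference of each of the 60 tested pathway genes outside the set, TAZ minus WPI, by list, with genes that passed the test in red. WWC3, MPP5 and AJUBA are the 3 red points, near 1.2, and YWHAZ and YWHAH lie furthest below 0.

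The cell type markers were read beside these results, since the cells of a transduced culture can change. All 10 plasma cell markers were expressed: their summed level was 2857 to 3252 scaled TPM in TAZ libraries and 2442 to 3161 in WPI libraries, with SDC1, IRF4 and SLAMF7 lower (3 of 10) and 0 higher. Their median log2 difference was -0.63 and 2 of the 10 were above 0, IGJ and XBP1, which also carried most of the sum. IGJ had 1698, 2132 and 1691 scaled TPM in the TAZ libraries, against 1166, 1224 and 1050.35 in the WPI libraries (limma adjusted p = 0.131). XBP1 had 841, 619 and 736 scaled TPM in the TAZ libraries, against 908, 157 and 1051 in the WPI libraries, so its sign depended on WPI library 2. Without IGJ and XBP1 the other 8 markers summed to 430 to 501 scaled TPM in TAZ libraries and 885 to 1087 in WPI libraries. Those 8 are the markers with a difference below 0, so their lower sum in TAZ libraries follows from that choice. Markers of epithelial cells or a packaging line summed to 978 to 2319 in TAZ libraries and 205 to 334 in WPI libraries, with KRT8, KRT18 and CLDN4 higher (3 of 7 tested). KRT8 carried this sum, with 2217, 864 and 931 scaled TPM in the TAZ libraries, against 120, 171 and 210.3 in the WPI libraries. The other 7 markers summed to 103 to 114 in TAZ libraries and 85.3 to 129.98 in WPI libraries, which overlap. Within this sum KRT18 had 17.1, 11.5 and 9.52 scaled TPM in the TAZ libraries, against 0.0730, 0.164 and 0.614 in the WPI libraries. KRT18 met the minimum through the TAZ libraries alone and was called in all 16 alternative settings. CLDN4 averaged 13.0 in TAZ libraries and 3.36 in WPI libraries. EPCAM averaged 49.1 in TAZ libraries and 53.3 in WPI libraries, CDH1 25.2 in TAZ libraries and 48.7 in WPI libraries, and KRT19 was near 0 in both. Fibroblast markers summed to 6.67 to 7.38 in TAZ libraries and 2.46 to 3.09 in WPI libraries, with DCN higher (1 of 2 tested). DCN, with a mean of 3.39 in TAZ libraries and 0.113 in WPI libraries, met the minimum through the TAZ libraries alone. The 6 fibroblast markers that were not tested were under 1 in every library. Of these, COL1A2 averaged 0.775 in TAZ libraries and 0.0699 in WPI libraries and COL3A1 0.396 in TAZ libraries and 0.0512 in WPI libraries, with no overlap between the groups. THY1, PDGFRA and PDGFRB overlapped, and COL6A3 averaged 0.0870 in TAZ libraries and 0.179 in WPI libraries without overlap. T or NK cell markers summed to 1.01 to 1.57 in TAZ libraries and 0.729 to 1.22 in WPI libraries, with NKG7 at 0. Myeloid markers summed to 1.4998 to 1.91 in TAZ libraries and 3.45 to 5.24 in WPI libraries, with CD14 lower (1 of 1 tested) and CD68 at 0. Several of these marker calls depended on single libraries: KRT8 lost its call without WPI library 1 or 2, CLDN4 without TAZ library 2 or WPI library 1 or 2, IRF4 and SLAMF7 when any library other than WPI library 3 was left out, and CD14 whichever library was left out. Calls were also lost in other settings. Over the 16 alternatives KRT8 was called in 12, CLDN4 in 11, and IRF4 and SLAMF7 in 7 each. CD14 was called in 5 of the 15 that tested it. The part of the keratin and DCN changes in the LATS2, AMOT and AMOTL2 results was not tested.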

How the data were processed

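RNA of 3 TAZ and 3 WPI libraries was analysed, grouped by the labels. Per the labels' protocols, polyadenylated RNA with spike-in RNA was sequenced. The submitters' processing notes name STAR 2.3.0, Bowtie2 2.0.0, StringTie 1.3.3b and the build hg19. The authors deposited coverage, FPKM and TPM per transcript of a supplied annotation (195984 transcripts), with 1 run per library per the file headers. Read counts were not used. The sources used here name neither the annotation release nor the use of strand. Overlapping genes and near-identical copies are therefore less certain than the SD shows.

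Deposited TPM was summed per gene and divided by library factors (median of ratios over 28148 genes: 0.962, 1.20 and 1.23 for TAZ, and 0.994, 0.944 and 0.873 for WPI libraries). The log2(scaled TPM + 1) values of genes whose mean reached 1 TPM went into lmFit and eBayes (trend and robust) of limma 3.58.1, run in R 4.3.3, with no block and a threshold of 0.05 on adjusted p. The fit was tested on simulated data. Aligned bases were recovered from the ratio of coverage to FPKM. Members and lists were chosen with earlier results of these data known. The text names all 10 members, pathway genes that passed plus the 6 largest that did not, and the 5 tested genes closest to each called member. The 16 alternatives changed scaling, pseudocount, minimum, unit, limma settings, the block, or left out each library.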

Additional observations from a re-analysis of the deposited data

How the results depend on the processing

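LATS2 (1.94 to 2.48 on the log2 scale, adjusted p 7.63e-04 to 0.0300) and AMOTL2 (4.27 to 8.28, adjusted p 1.30e-04 to 0.0126) were called in all 16 alternatives. AMOT could be tested in 13 and was called in 12 of them (1.59 to 4.27, adjusted p 0.00323 to 0.0653). A minimum mean of 5 TPM, FPKM, or leaving out TAZ library 2 took it below the minimum. The other 7 members were called in 0 alternatives. Correlations of deviations from the group means were 0.00401, -0.0244 and -0.0549 between TAZ and WPI libraries of the same replicate number (1, 2 and 3). Between libraries of unlike number they ran from -0.0418 to 0.0697. Such correlations cannot show whether the libraries were made in pairs. With the replicate block the AMOT difference was 1.71 (adjusted p = 0.0653), and the block gave 202 higher and 34 lower genes over all tested genes and 0 higher genes of the wider list, against 436, 187 and 3 without the block. With no minimum the counts were 290 higher, 62 lower and 0 of the wider list, and 46603 genes were then tested. Without scaling 85 genes were lower over all tested genes. The wider list held 5 higher genes without scaling, with quantile normalization and with 75th percentile scaling. Leaving out 1 library at a time gave 224 to 513 higher and 54 to 261 lower genes, and 0 to 4 higher and 0 to 1 lower genes of the wider list, with the 1 lower gene (YWHAZ) found without WPI library 3. LATS1 turned to -0.02 without TAZ library 2, -0.03 without TAZ library 3 and -0.26 without WPI library 3 (range -0.26 to 0.26 with 1 library left out), and EPCAM to -0.02, -0.0044 and -0.48 without TAZ library 2, TAZ library 3 and WPI library 1 (range -0.48 to 0.35). Without scaling, STK3 turned to 0.073, SAV1 to 0.068, NF2 to 0.15, and the transcripts STK3 ENST00000419617.2 to 0.18, NF2 ENST00000338641.4 to 0.040 and FRMD6 ENST00000554778.1 to 0.00062. STK4 ENST00000487587.1 turned to -0.61 with a pseudocount of 0.1. None of these reversed values passed the test in either setting, and the causes were not tested. The median SE of 0.24 limits what 3 libraries a group can resolve.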
